A study of Homo sapiens with 16 samples.

Results

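The 10 genes described here encode S100 calcium binding proteins: S100A2, S100A4, S100A6, S100A7, S100A8, S100A9, S100A10, S100A11, S100A14 and S100A16. They were chosen by name, with earlier results of these data known, and all 10 were found among the 18332 genes of the deposited expression table. The other gene lists below were chosen in the same way, so counts of these sets set against all genes are descriptions and not tests. RNA sequencing was performed in 2 established human triple-negative breast cancer lines, the mesenchymal-like MDA-MB-231 and the basal epithelial MDA-MB-468, both called ER negative in the labels. Cells of each line were kept in a T25 flask for 48 h in glucose at 5 mM (low glucose, the control) or 25 mM (high glucose), with 4 replicates in each of the 4 groups and 16 libraries in all. The labels name no other agent and no genetic change, and both lines are single lines grown in culture, so differences between them hold for these lines only. Per the paper's methods, MDA-MB-231 was grown in DMEM and MDA-MB-468 in RPMI, so line and usual medium cannot be told apart. The glucose media held no serum, and mannitol was added to the control to match osmolarity in only some experiments. The labels call the flasks of a group replicates without saying whether they came from separate cultures, and the p-values measure only the spread between these libraries.

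S100 proteins are small calcium sensors that carry a pair of EF-hand loops, usually work as dimers, and bind and alter partner proteins when calcium enters the cell. Inside cells they act on the cytoskeleton, on membranes and on annexins. Several are also released, and S100A8, S100A9 and S100A7 then act as alarmins, danger signals that are sensed through receptors such as TLR4 and AGER (RAGE). Most S100 genes lie side by side in the epidermal differentiation complex, a gene cluster whose other members build the outer layer of skin, and S100A4, S100A7, S100A8 and S100A9 have long been studied in breast tumors.

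On GRCh37 (GENCODE annotation) all 10 genes were on chromosome 1, from S100A10 (start 151955391, end 151966335, minus strand) to S100A14 (start 153586731, end 153589462, minus strand). S100A9 (start 153330330, end 153333499) was the only listed gene on the plus strand. The canonical transcripts, all protein coding, had 3 exons each, except S100A14 with 4, and were between 408 nt (S100A8) and 1172 nt (S100A16) long. None of the 10 shared exonic bases with another annotated gene. For S100A7, 67 of its 380 stretches of 50 bases (17.6%) also occurred in S100A7A, its close copy, and for S100A11, 12 of 514 (2.33%) also occurred in ENSG00000228974, so reads there could have been split or lost, depending on how the authors counted. The other 8 shared no 50-base stretch with a transcript of another gene.

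Promoter sequence from RefSeq on GRCh38.p14 was found for all 10 genes, in 14 windows, and only the 250 bases before each gene start were searched. Both strands were searched for 4 motifs, which do not overlap one another in these windows. The TATA box core TATAAA occurred in 5 of the 14 windows, against 10.7% of all 35116 windows, and these belonged to 4 genes (S100A4, S100A7, S100A8 and S100A9), since 2 overlapping windows of S100A8 hold the same site. It began 31 bases before the start of S100A4, 28 before that of S100A7, and 29 before that of S100A9 and of 1 of the starts listed for S100A8. The AP-1 motif TGANTCA was present in S100A2 alone (6.57% of all windows, 8.06% of all genes). Neither the E-box CACGTG (6.34% of all windows, 7.73% of all genes) nor the STAT motif TTCNNNGAA (6.57% and 8.09%) was found in these letters for any of the 10. The 250 bases before the start are shown for S100A7 and S100A9, which were at 0 in MDA-MB-231 and rose with glucose in MDA-MB-468, and for S100A10, which was expressed in both lines and did not rise in either. The genes shown do not stand for all 10. S100A4 has the TATA box core and was not called in MDA-MB-468, while S100A6, S100A11, S100A14 and S100A16 rose there without these exact letters. Variants were not searched, and the windows of S100A6 and S100A14 hold TATAAG close to the gene start, so they cannot be called free of a TATA box. A link between the motif and glucose was not tested. Capitals mark the TATA box core, the sequences run 5′ to 3′ on the gene's strand, and their GRCh38.p14 positions are not comparable with the GRCh37 positions above.
S100A7, chr1:153460652-153460901, minus strand: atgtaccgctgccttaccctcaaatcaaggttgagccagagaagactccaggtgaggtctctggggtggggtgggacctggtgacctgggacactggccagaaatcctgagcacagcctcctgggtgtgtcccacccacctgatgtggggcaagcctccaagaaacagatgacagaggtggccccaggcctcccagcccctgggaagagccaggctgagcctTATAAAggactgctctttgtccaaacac
S100A9, chr1:153357604-153357853, plus strand: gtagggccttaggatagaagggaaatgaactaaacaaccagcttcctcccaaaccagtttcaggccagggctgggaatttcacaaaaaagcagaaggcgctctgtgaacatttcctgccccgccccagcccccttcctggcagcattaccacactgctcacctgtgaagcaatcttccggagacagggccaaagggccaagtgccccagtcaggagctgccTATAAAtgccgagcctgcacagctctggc
S100A10, chr1:151993860-151994109, minus strand: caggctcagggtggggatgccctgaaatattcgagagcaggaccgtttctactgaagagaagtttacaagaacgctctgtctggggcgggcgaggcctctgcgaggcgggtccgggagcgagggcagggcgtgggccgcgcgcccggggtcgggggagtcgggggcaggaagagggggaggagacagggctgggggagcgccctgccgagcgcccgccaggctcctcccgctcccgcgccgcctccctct

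The libraries held between 14094597 and 24425916 reads assigned to genes, so 3 reads, the floor used for a gene at 0, corresponded to 0.123 to 0.213 CPM (reads scaled to a common library size). Values are normalized read counts, which are read counts divided by a size factor of each library. The first principal component of all 16 libraries, with 91.8% of the variance, separated the lines. Of 21 line markers listed, some differed widely: mean VIM was 5548 CPM in low-glucose MDA-MB-231 and 1.37 CPM in low-glucose MDA-MB-468, CDH1 was 0.318 and 128 CPM, and KRT5 was 0.0649 and 964 CPM. Others split the lines less clearly. In the same order, mesenchymal CDH2 was 0.433 and 0.035 CPM. Epithelial KRT8 was 610 and 2633 CPM, KRT18 385 and 1258 CPM, KRT19 709 and 1622 CPM, and CLDN4 100 and 148 CPM. S100A8 and S100A9 are best known from leukocytes, and 7 of 15 leukocyte markers were in the table, with a summed level of 224 to 237 CPM in low-glucose MDA-MB-231, 225 to 232 CPM in high-glucose MDA-MB-231, 8.9 to 11.8 CPM in low-glucose MDA-MB-468 and 14.2 to 17.9 CPM in high-glucose MDA-MB-468. Their largest parts in MDA-MB-231, where S100A8 and S100A9 had no reads, were CD68 (131 CPM in low glucose) and LAPTM5 (94 CPM). In MDA-MB-468, LYZ was at 0 in all 8 libraries, PTPRC, which marks all leukocytes, was at 0.558 and 0.194 CPM in low and high glucose, and CD14 was at 5.99 and 12.9 CPM. The part of CD14 in the results below was not tested.

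The lines carried different sets of S100 transcripts. MDA-MB-231 had high levels of S100A6, S100A4, S100A11, S100A10 and S100A16, lower S100A2, no reads of S100A7, S100A8 or S100A9, and almost none of S100A14. MDA-MB-468 expressed all 10. In low glucose all 10 differed between the lines (limma, Benjamini-Hochberg adjusted p under 0.05), 5 higher and 5 lower in MDA-MB-468, where 45.0% of the 17115 genes tested were higher and 40.4% were lower. In high glucose 5 were higher (44.6% of genes tested) and 4 were lower (40.6%). With shares this large across all genes, the counts say little about S100 genes in particular, and it is the sizes that differ from gene to gene.

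**Figure D1:**
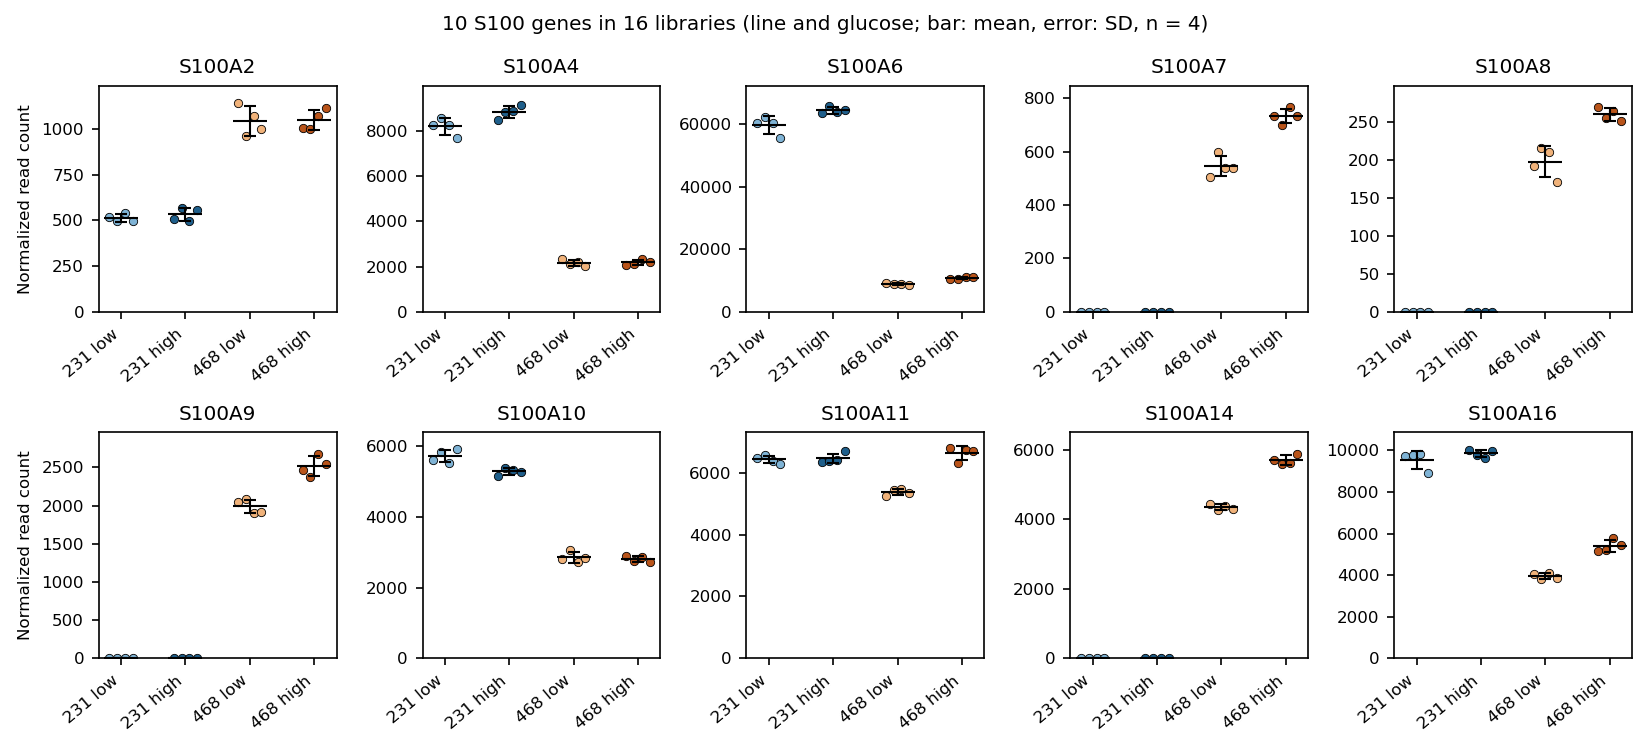
Normalized read count (y axis, linear from 0, scaled per panel) of each of the 10 S100 genes in the 4 libraries of each line and glucose group (x axis), with the mean as a bar and the SD as error (n = 4). S100A7, S100A8 and S100A9 lie at 0 in all MDA-MB-231 libraries, and in MDA-MB-468 the high-glucose points of 7 genes lie above all low-glucose points.

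S100A9, a subunit of the alarmin calprotectin, was the most abundant of the 3 genes that had reads in MDA-MB-468 only. In MDA-MB-468, S100A9 was at 2042, 2088, 1907 and 1919 normalized read counts in the low-glucose libraries and at 2459, 2377, 2681 and 2544 in the high-glucose libraries. All 8 MDA-MB-231 libraries had 0 reads, so S100A9 was at least 691-fold higher in MDA-MB-468 in low glucose and at least 859-fold higher in high glucose, taking 3 reads in each MDA-MB-231 library as the floor. By the same rule S100A7 (psoriasin, an antimicrobial protein of stressed epithelium) was at least 189-fold and at least 250-fold higher, and S100A8, the partner of S100A9, at least 68.8-fold and at least 89-fold higher.

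S100A14, a member found mainly in epithelia, was also close to absent from MDA-MB-231. Each glucose group of that line had 9 reads in all, between 0 and 4.207 normalized read counts per library. The S100A14 normalized read counts of MDA-MB-468 were 4450, 4257, 4392 and 4281 in low glucose and 5698, 5577, 5601 and 5888 in high glucose. The ratio of MDA-MB-468 to MDA-MB-231 was 2203 in low glucose (95% Poisson interval for the 9 reads 1160 to 4817, counting error only) and 2546 in high glucose (1341 to 5568). S100A2, a gene of basal epithelium and a known p53 and p63 target, was the fifth gene higher in MDA-MB-468, but present in both. Low-glucose MDA-MB-231 gave 521.6, 499.1, 542 and 496.6 normalized read counts of S100A2, and high-glucose MDA-MB-231 gave 506, 569, 499.7 and 556.4. MDA-MB-468 had 1144, 963.3, 1069 and 998.8 S100A2 normalized read counts in low glucose and 1008, 998.4, 1074 and 1115 in high glucose. The lines did not overlap, and the log2 difference was 1.02 ± 0.06 (SE, as in all log2 differences here) in low glucose and 0.98 ± 0.06 in high glucose (limma adjusted p = 1.92e-11 and 3.46e-11).

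S100A6 (calcyclin, which binds CACYBP and annexins) was the most abundant of the 10 by reads in every group and the one that was lower in MDA-MB-468 by the most. In MDA-MB-231, S100A6 was at 60246, 62262, 60154 and 55457 normalized read counts in the low-glucose libraries and at 63327, 65808, 63714 and 64523 in the high-glucose libraries. The S100A6 normalized read counts of MDA-MB-468 were 9374, 8907, 8898 and 8668 in low glucose and 10611, 10443, 11142 and 11028 in high glucose. The log2 difference of MDA-MB-468 from MDA-MB-231 was -2.73 ± 0.03 in low and -2.57 ± 0.03 in high glucose (limma adjusted p = 1.04e-20 and 2.12e-20). In MDA-MB-231 it was the 6th to 11th most abundant gene of all by reads, and in MDA-MB-468 it ranked between 141 and 194. It made up 65.4% to 68% of the reads of the 10 genes in MDA-MB-231 libraries and 28.1% to 29.1% in MDA-MB-468 libraries.

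S100A4 (metastasin, a binder of non-muscle myosin that is associated with motile and mesenchymal cells) followed the same direction. Low-glucose MDA-MB-231 gave 8282, 8581, 8282 and 7678 normalized read counts of S100A4, and high-glucose MDA-MB-231 gave 8485, 8846, 8902 and 9155. MDA-MB-468 had 2341, 2129, 2219 and 2019 S100A4 normalized read counts in low glucose and 2092, 2107, 2336 and 2211 in high glucose. Its log2 difference between lines was -1.92 ± 0.05 in low and -2.02 ± 0.05 in high glucose (limma adjusted p = 8.62e-17 and 4.33e-17). S100A10 was lower in MDA-MB-468 by a log2 difference of -1.004 ± 0.03 in low glucose (adjusted p = 1.12e-14) and -0.92 ± 0.03 in high glucose (4.23e-14), and S100A16 by -1.27 ± 0.04 (2.58e-15) and -0.87 ± 0.04 (5.49e-13).

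S100A11 (calgizzarin, a partner of annexin ANXA1) was the gene on which the lines were closest. In MDA-MB-231, S100A11 was at 6474, 6567, 6387 and 6282 normalized read counts in the low-glucose libraries and at 6354, 6382, 6403 and 6683 in the high-glucose libraries. The S100A11 normalized read counts of MDA-MB-468 were 5252, 5425, 5469 and 5329 in low glucose and 6796, 6292, 6741 and 6706 in high glucose. In low glucose it was lower in MDA-MB-468 with a log2 difference of -0.26 ± 0.03 (limma adjusted p = 6.14e-08), and in high glucose the lines overlapped at a difference of 0.04 ± 0.03 (adjusted p = 0.177). The low-glucose call of S100A11 held in 18 of 19 alternative analyses, and the high-glucose difference stayed uncalled in 15 of 19. With quantile normalization the low-glucose difference was -0.05 (adjusted p = 0.0582) and the high-glucose difference 0.14 (4.38e-05), and with a correction for transcript length they were -0.72 (2.69e-15) and -0.41 (1.13e-11). Without high-glucose replicate 2 of MDA-MB-468 the high-glucose difference was 0.06 (adjusted p = 0.0198).

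**Figure D2:**
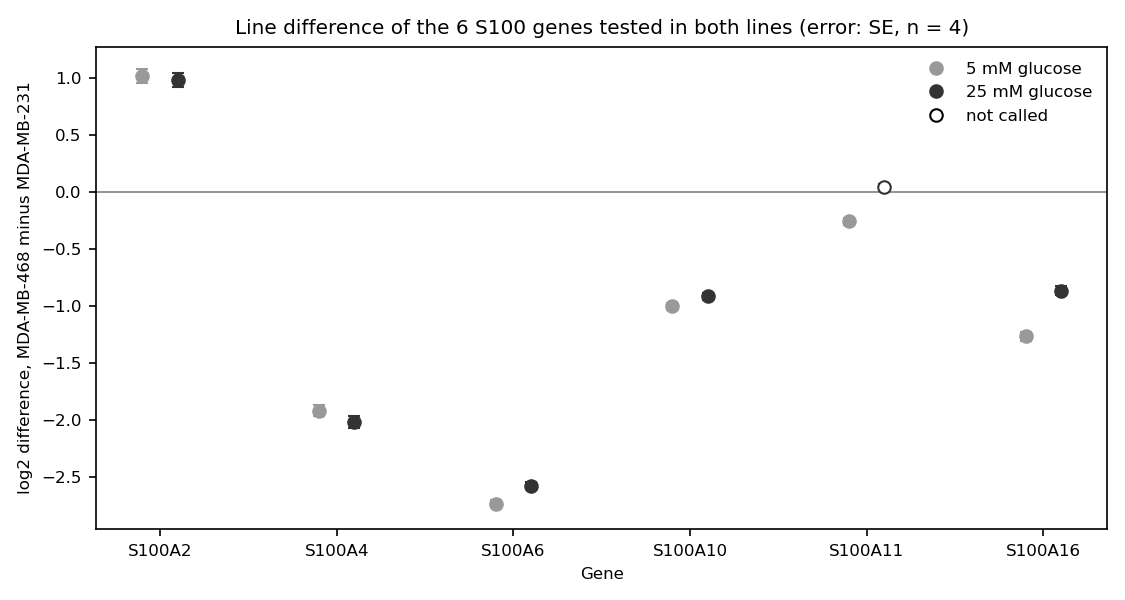
Log2 difference of MDA-MB-468 minus MDA-MB-231 (y axis) in low and high glucose for the 6 S100 genes tested in both lines, with the SE as error (n = 4 libraries per group) and open symbols for differences that were not called. S100A2 lies above 0, S100A4, S100A6, S100A10 and S100A16 lie below 0, and S100A11 moves from -0.26 in low to 0.04 in high glucose.

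Compared per length, in RPKM (CPM divided by the transcript length in kb), the order in low-glucose MDA-MB-231 was S100A6 (7909 ± 371 RPKM, SD, n = 4), S100A4 (922 ± 41.4), S100A11 (658 ± 12.6), S100A10 (492 ± 18.4), S100A16 (470 ± 19.8) and S100A2 (30.4 ± 1.1). Only S100A10 and S100A16 overlapped among these neighbors, and in high glucose S100A16 (493 RPKM) was above S100A10 (462 RPKM) without overlap. In low-glucose MDA-MB-468 the order was S100A6 (1313 ± 41.1 RPKM), S100A11 (607 ± 10.4), S100A10 (270 ± 13.4), S100A4 (270 ± 16.4), S100A14 (262 ± 5.48), S100A9 (221 ± 9.33), S100A16 (216 ± 8), S100A7 (80.8 ± 5.47), S100A2 (67.9 ± 5.18) and S100A8 (30.9 ± 3.06). S100A10, S100A4 and S100A14 could not be ordered by their spread there, nor could S100A9 and S100A16. In high-glucose MDA-MB-468, S100A14 (336 RPKM) stood above the overlapping levels of S100A16 (287), S100A9 (273), S100A4 (265) and S100A10 (260).

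**Figure D3:**
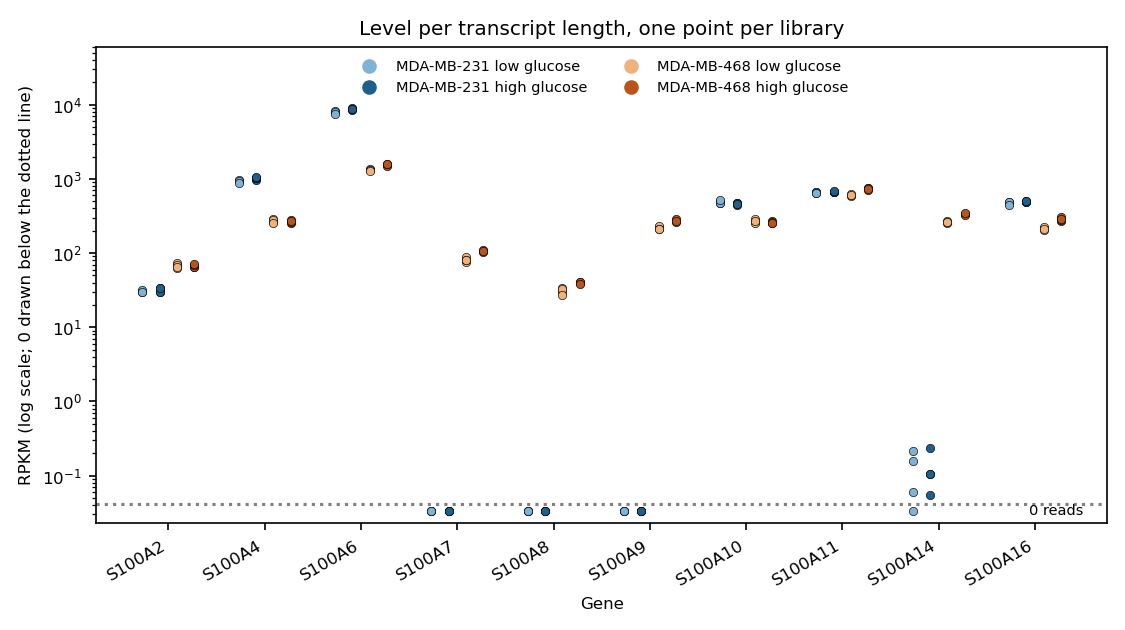
Level per transcript length in RPKM (y axis, log scale, with 0 reads drawn below the dotted line) of each S100 gene (x axis), with a point per library and a color per line and glucose group. S100A6 is at the top in all 4 groups, S100A7, S100A8 and S100A9 are at 0 in MDA-MB-231, and S100A14 is at or near 0 there.

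In MDA-MB-468, most of the S100 genes were higher in high glucose. These are bulk libraries, in which more cells with a transcript and more of it per cell cannot be told apart. S100A6, S100A7, S100A8, S100A9, S100A11, S100A14 and S100A16 rose, 7 of 10 genes, and none fell, whereas 24.9% of the 15757 genes tested rose and 22.7% fell (limma, adjusted p under 0.05). In all 7 the 4 high-glucose libraries lay above all 4 low-glucose libraries, a separation in either direction seen in 42.5% of genes tested. For falls the count was also 0 at an unadjusted p under 0.05 and with edgeR and DESeq2. The median log2 difference of the 10 genes was 0.32, against 0.00 over all genes. Of the 11350 genes that reached 5 CPM in 4 or more libraries, as the S100 genes did, 31.9% rose, and among genes with transcripts under 1200 nt, a limit set to include all 10, 26.3% rose and 9.36% fell. On the scale of log2(value + 1), to which all log2 differences here refer, the rises were between 20.6% (S100A6) and 35.9% (S100A16).

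The alarmins S100A8 and S100A9 rose together. Low-glucose MDA-MB-468 gave 193, 216.8, 210.9 and 171.6 normalized read counts of S100A8, and high-glucose MDA-MB-468 gave 270.3, 255.6, 265.5 and 251.2. S100A8 rose by a log2 difference of 0.40 ± 0.08 (limma adjusted p = 0.000639) and S100A9, whose counts are given above, by 0.34 ± 0.04 (adjusted p = 5.17e-06). The S100A8 transcript is the scarcer of the heterodimer: per length it was at 12.6% to 15.5% of S100A9 in the 4 low-glucose and 13.9% to 15.4% in the 4 high-glucose libraries. The log2 ratio of S100A8 to S100A9 normalized read counts was -3.33 ± 0.14 (SD, n = 4) in the low-glucose libraries and -3.26 ± 0.08 in the others, a difference of 0.06 that was within the spread (two-sided exact permutation test, p = 0.486, adjusted 0.486 over 3 ratio tests, smallest possible p 0.0286). S100A7, which sits in the same stretch of the cluster, rose by 0.43 ± 0.05 (limma adjusted p = 6.56e-06). MDA-MB-468 had 506.1, 597.2, 539.1 and 538 S100A7 normalized read counts in low glucose and 732, 700.2, 766.8 and 732.5 in high glucose. Its close copy S100A7A had 15.55 to 33.23 normalized read counts in MDA-MB-468 and a log2 difference of 0.12 ± 0.28 (adjusted p = 0.761).

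The neighboring genes S100A14 and S100A16 gave rises of similar size. S100A14, with the counts given above, rose by a log2 difference of 0.39 ± 0.03 (limma adjusted p = 1.77e-08). In MDA-MB-468, S100A16 was at 4073, 3835, 4129 and 3856 normalized read counts in the low-glucose libraries and at 5170, 5198, 5781 and 5466 in the high-glucose libraries. S100A16 rose by 0.44 ± 0.04 (adjusted p = 8.67e-08), the steepest of the 10 in this line. S100A14 lost its call when all 16 libraries were fitted together (adjusted p = 0.428), a fit in which its 0 to 4 reads per MDA-MB-231 library share the estimate of the spread.

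S100A11 rose by a log2 difference of 0.30 ± 0.03 (limma adjusted p = 4.69e-07) and S100A6 by 0.27 ± 0.03 (adjusted p = 2.15e-06) in MDA-MB-468, again with no overlap between the glucose groups. The other 3 genes did not pass the test: S100A2 had a difference of 0.01 ± 0.05 (adjusted p = 0.908), S100A4 of 0.01 ± 0.05 (0.914) and S100A10 of -0.03 ± 0.04 (0.611), and the groups overlapped in each. The S100A10 normalized read counts of MDA-MB-468 were 2811, 3062, 2717 and 2823 in low glucose and 2882, 2741, 2856 and 2728 in high glucose. The 7 rises kept their direction in all 20 alternative analyses, and apart from S100A14 in the joint fit they also stayed past the threshold.

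**Figure D4:**
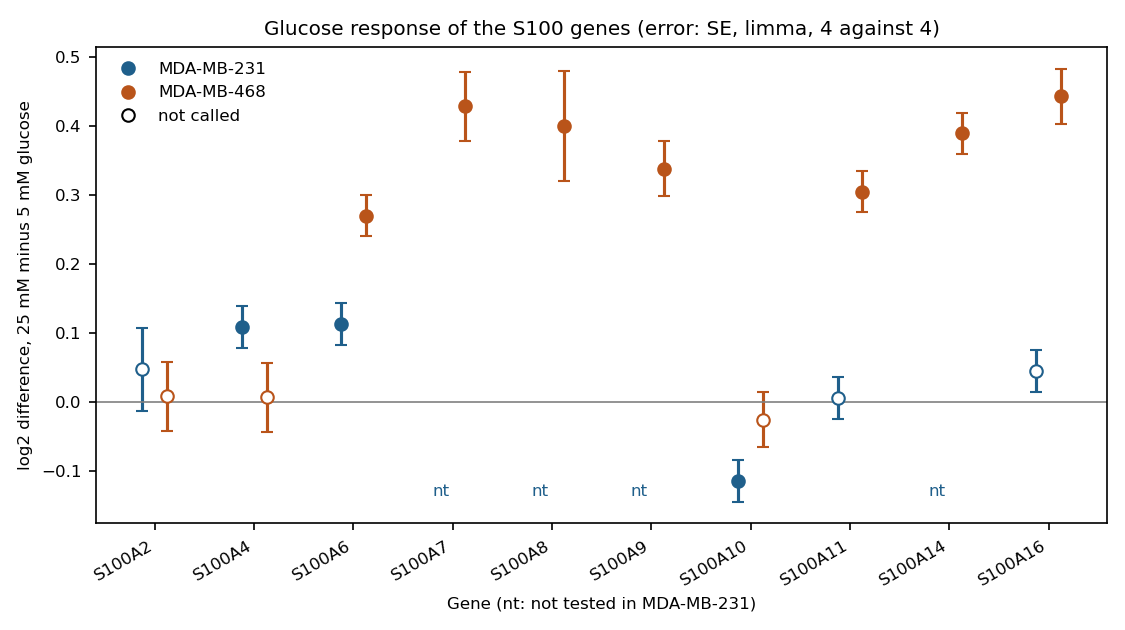
Log2 difference of 25 mM minus 5 mM glucose (y axis) for each S100 gene (x axis) in both cell lines, with the SE as error (4 against 4 libraries), filled symbols for limma adjusted p under 0.05, and nt where a gene was not tested in MDA-MB-231. In MDA-MB-468, 7 genes lie between 0.27 and 0.44 and 3 lie between -0.03 and 0.01, while in MDA-MB-231 all 6 tested genes lie between -0.11 and 0.11.

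In MDA-MB-231 the differences between the glucose groups were small. Only 6 of the 10 had enough reads to test. S100A6 (8.17%) and S100A4 (7.86%) rose and S100A10 fell by 7.59%, where 5.71% of the 14884 genes tested rose and 9.37% fell. Under quantile normalization 1027 of the 2141 genes called rose, against 850 of 2245 here, so the balance of rises and falls in this line depends on the scaling. The median log2 difference of the 6 was 0.05, against 0.00 over all genes, and also 0.05 over genes with transcripts under 1200 nt, of which 5.72% rose and 2.18% fell.

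S100A6 rose by a log2 difference of 0.11 ± 0.03 (limma adjusted p = 0.0232), and its 4 high-glucose libraries lay above the 4 low-glucose libraries given above. Replicate 4 was the lowest low-glucose library for S100A6 (55457), S100A4 (7678) and S100A16 (8905) alike. S100A4 rose by 0.11 ± 0.03 (adjusted p = 0.0411), but its groups overlapped, and the call was lost in 11 of 20 alternative analyses, with an adjusted p between 0.00717 and 0.287. S100A10 (p11, a member that no longer binds calcium and forms a complex with annexin ANXA2 that recruits plasminogen at the cell surface) fell. Low-glucose MDA-MB-231 gave 5618, 5817, 5524 and 5917 normalized read counts of S100A10, and high-glucose MDA-MB-231 gave 5144, 5382, 5330 and 5277. Its log2 difference was -0.11 ± 0.03 (adjusted p = 0.0174), with no overlap. Under quantile normalization the calls of S100A6 and S100A10 were lost and that of S100A16 appeared (adjusted p = 0.0288). Each of the 8 libraries, when left out, took at least 1 of the 3 calls with it. S100A10 was not called without low-glucose replicate 2 (adjusted p = 0.0545) or high-glucose replicate 1 (0.0674), and S100A6 was not called without high-glucose replicate 2 (0.0742) or 4 (0.0597). S100A4 was called only without low-glucose replicate 2 or high-glucose replicate 1. After a correction for transcript length, the S100A10 call alone was left. S100A6 and S100A10 were 2 of the 6 genes whose groups did not overlap, against 18.7% of genes tested.

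S100A2 (0.05 ± 0.06, limma adjusted p = 0.647), S100A11 (0.01 ± 0.03, 0.921) and S100A16 (0.04 ± 0.03, 0.41) did not pass the test in MDA-MB-231. MDA-MB-231 had 9738, 9768, 9817 and 8905 S100A16 normalized read counts in low glucose and 10016, 9757, 9648 and 9989 in high glucose. The S100A16 groups overlapped. S100A7, S100A8 and S100A9 had 0 reads in all 8 libraries, which allows up to 0.123 to 0.192 CPM by counting error, and no response to glucose could be measured.

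The difference between the lines in the response itself, tested as the interaction of line and glucose over all 16 libraries, was larger in MDA-MB-468 for 3 of the 10 genes and smaller for none, a count that was also 0 at an unadjusted p under 0.05 and with edgeR and DESeq2. Across the 17115 genes tested the share was 17.0% larger and 13.9% smaller. S100A16 responded more by 0.40 ± 0.05 on the log2 scale (limma adjusted p = 3.05e-05), S100A11 by 0.30 ± 0.04 (1.21e-05) and S100A6 by 0.16 ± 0.05 (0.0175), which did not pass under quantile normalization (0.11, adjusted p = 0.246). S100A2 (-0.04 ± 0.08, 0.766), S100A4 (-0.10 ± 0.06, 0.262) and S100A10 (0.09 ± 0.05, 0.183) did not pass this test. For S100A7, S100A8, S100A9 and S100A14 the contrast sets a measured rise against a line with no or nearly no reads and cannot be read as a comparison of responses. The counts of larger and smaller responses therefore speak only for the other genes.

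The annexin ANXA2, the partner of S100A10, had 31676 ± 312 normalized read counts (SD, n = 4) in low-glucose MDA-MB-231, 31774 ± 368 in high-glucose MDA-MB-231, and 20324 ± 373 and 20458 ± 566 in MDA-MB-468. In MDA-MB-231 the log2 ratio of S100A10 to ANXA2 went from -2.47 ± 0.05 to -2.59 ± 0.03, with all 4 high-glucose libraries below all 4 low-glucose libraries. Two-sided exact permutation gave p = 0.0286, the smallest it can give, and 0.0857 after adjustment over 3 ratio tests, so the ratio did not pass the threshold. In MDA-MB-468 the ratio was -2.83 ± 0.08 in low and -2.87 ± 0.02 in high glucose (exact p = 0.457, adjusted 0.486). Per length, S100A10 was at 37.5% to 43.7% of ANXA2 in MDA-MB-231 and at 30.4% to 34.5% in MDA-MB-468.

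Of all reads assigned to genes, the 10 genes took 0.519% ± 0.0205 (SD, n = 4) in low-glucose MDA-MB-231 and 0.56% ± 0.0085 in high-glucose MDA-MB-231, and 0.2% ± 0.00337 and 0.237% ± 0.00516 in MDA-MB-468. In each line the 4 high-glucose shares (0.548% to 0.568%, and 0.231% to 0.243%) lay above the 4 low-glucose shares (0.492% to 0.542%, and 0.196% to 0.204%). In MDA-MB-231 most of the sum was S100A6, with 0.343% ± 0.016 of all reads in low and 0.378% ± 0.00698 in high glucose. The sum there therefore mainly follows S100A6, whose call depended on the scaling, and does not show a rise of the 10 genes together.

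**Figure D5:**
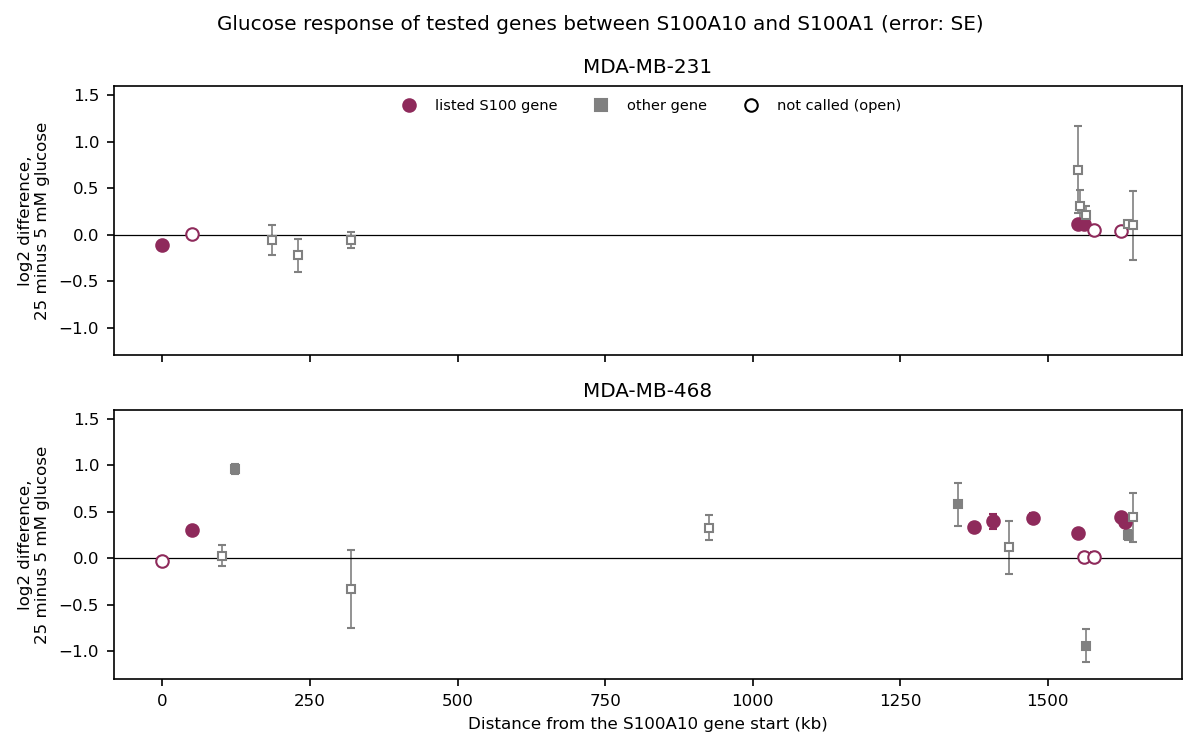
Log2 difference of 25 mM minus 5 mM glucose (y axis, SE as error) against the distance in kb from the start of S100A10 (x axis) for every tested gene from S100A10 to S100A1, with the listed S100 genes in purple, other genes in gray, and filled symbols for limma adjusted p under 0.05. In MDA-MB-468 S100A10, S100A4 and S100A2 lie near 0, the other listed genes lie between 0.27 and 0.44, and S100A3 lies at -0.94.

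From S100A10 to S100A1 the cluster spans 1649 kb, and the table held 19 other genes there. In MDA-MB-468, 9 of the 19 were tested, 3 rose (TCHH, PGLYRP4 and S100A13) and 1 fell (S100A3), with a median log2 difference of 0.25. Of all genes tested in that line, 24.9% rose and 22.7% fell. In MDA-MB-231, 8 were tested and 0 passed the limma threshold, nor with edgeR or DESeq2, 2 had an unadjusted p under 0.05, and the median was 0.11. The shares of all genes there were 5.71% risen and 9.37% fallen. With so few genes tested, the counts in either line cannot be set apart from these shares. TCHH (trichohyalin, a structural protein of hair follicles) rose in MDA-MB-468 by 0.96 ± 0.05 (limma adjusted p = 6.74e-10), from 478 ± 31.7 to 932 ± 40.5 normalized read counts. Genes that rose and genes that did not pass were interleaved along the chromosome: S100A6, 1551.7 kb from S100A10, rose, S100A4 at 1560.7 kb and S100A2 at 1578.2 kb had differences of 0.01, and S100A16 at 1624 kb rose.

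Of 11 other S100 genes listed, 6 were in the table. In MDA-MB-468, S100A13 (an S100 protein involved in the release of fibroblast growth factor 1) rose by 0.25 ± 0.05 (limma adjusted p = 0.000858), from 852 ± 25.2 to 1014 ± 77.3 normalized read counts. Of its 428 stretches of 50 bases, 176 (41.1%) also occurred in ENSG00000271853, so reads of S100A13 could have been split or lost. S100A1 shares 148 exonic bases with S100A13 on the opposite strand. S100A3, a gene expressed strongly in hair cuticle, fell by 0.94 on the log2 scale (SE 0.18, adjusted p = 0.000358), with 61.68, 46.45, 42.89 and 55.69 normalized read counts in low glucose and 23.33, 28.4, 26.32 and 26.97 in high glucose. Its groups did not overlap, and its response was lower than in MDA-MB-231 by a log2 difference of -1.15 ± 0.18 (interaction, adjusted p = 8.84e-05), where it was 170 ± 16.2 and 197 ± 22 (0.21 ± 0.10, adjusted p = 0.162). S100A3 lies within the span of S100A4 on the same strand but shares no exonic bases with its canonical transcript. S100P, which lies on chromosome 4, was at 528 ± 31.4 and 524 ± 30 normalized read counts in low- and high-glucose MDA-MB-468 (adjusted p = 0.899) and at 28.8 ± 4.38 and 41.2 ± 8.76 in MDA-MB-231. Its difference between the lines was 17.9-fold in low glucose (limma adjusted p = 3.7e-15). In MDA-MB-231 its glucose groups overlapped at 0.49 ± 0.20 (adjusted p = 0.115, but 0.0208 in the joint fit), and the interaction of -0.50 ± 0.18 (adjusted p = 0.0502) passed in 9 of 27 alternative analyses. S100A1 and S100A5 were at or under 26.25 and 65.02 in all libraries and did not pass the test in a line where they were tested.

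Of 11 genes listed as receptors, among them the transporter gene SLC7A11, 3 were higher and 7 lower in MDA-MB-468 than in MDA-MB-231 in low glucose, where 45.0% and 40.4% of all genes were. TLR4, which senses S100A8 and S100A9, was named after its values were seen: it had 2178 ± 157 normalized read counts in low-glucose and 2344 ± 113 in high-glucose MDA-MB-231 and 0 reads in all 8 MDA-MB-468 libraries, a level at least 791-fold and at least 771-fold higher in MDA-MB-231. So the line with S100A8 and S100A9 transcripts had no TLR4 reads, and the line with TLR4 had none of S100A8 or S100A9. AGER, also named after its values were seen, was low in both, with 16.45 to 32.41 normalized read counts in MDA-MB-231 and 20.66 to 41.51 in MDA-MB-468 across both glucose groups.

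In MDA-MB-468, 9 receptor genes were tested, 4 rose and 1 fell with glucose, and in MDA-MB-231, 10 were tested, 1 rose and 1 fell. The shares of all genes against which these and the following list counts stand are 24.9% risen and 22.7% fallen in MDA-MB-468, and 5.71% and 9.37% in MDA-MB-231, so the receptor count of MDA-MB-231 is near the background. The syndecan SDC1 rose in MDA-MB-468 (0.62 ± 0.04, limma adjusted p = 1.35e-09) and fell in MDA-MB-231 (-0.17 ± 0.04, adjusted p = 0.00371). SDC4 rose in MDA-MB-468 (0.45 ± 0.04, adjusted p = 3.43e-08). The cystine transporter SLC7A11 moved the other way, with a fall in MDA-MB-468 (-0.70 ± 0.05, adjusted p = 2.01e-08) and a rise in MDA-MB-231 (0.33 ± 0.03, adjusted p = 3.24e-06). It gave the 1 fall counted in MDA-MB-468 and the 1 rise counted in MDA-MB-231, and it is a transporter on a list of receptors.

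All 19 listed binding partners of S100 proteins were tested in both lines. In MDA-MB-468, 5 rose (24.9% of all genes) and 6 fell (22.7%), with a median log2 difference of -0.03, and in MDA-MB-231 none rose and 4 fell, with a median of -0.04. With an unadjusted p under 0.05, 1 of the 19 was higher in that line, and edgeR and DESeq2 called 0. The myosin heavy chains MYH10 (-0.44 ± 0.04, limma adjusted p = 1.97e-06) and MYH9 (-0.26 ± 0.04, adjusted p = 9.68e-05), the target of S100A4, fell in MDA-MB-231. Both were also lower in high-glucose MDA-MB-468, without overlap. There MYH10 was at 1814 ± 67.4 normalized read counts against 2045 ± 16.7 in low glucose, and MYH9 at 18203 ± 545 against 20118 ± 241. The tropomyosin TPM1 fell in MDA-MB-468 (-0.59 ± 0.03, limma adjusted p = 2.82e-10). SUGT1 also fell in MDA-MB-468 (-0.33 ± 0.05, adjusted p = 7.01e-05), and the phosphatase PPP5C (0.30 ± 0.04, adjusted p = 2.55e-05) and the annexin ANXA6 (0.27 ± 0.05, adjusted p = 0.000359) rose.

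Of the plasminogen system, which S100A10 serves at the cell surface, 8 of 9 genes were in the table and 7 were tested in each line. In MDA-MB-231, 1 rose (5.71% of all genes) and 2 fell (9.37%), and in MDA-MB-468, 2 rose and 2 fell, near the shares of all genes (24.9% and 22.7%). The 3 calls in MDA-MB-231 became 6 without low-glucose replicate 4 and 6 with the length correction, and 1 in the joint fit. The urokinase gene PLAU, which encodes an activator of plasminogen, fell in MDA-MB-231 (-0.32 ± 0.03, limma adjusted p = 1.07e-06) and rose in MDA-MB-468 (0.45 ± 0.10, adjusted p = 0.00133) from a lower level, 98.8 against 5326 normalized read counts in low glucose. SERPINE2 rose in MDA-MB-231 (0.20 ± 0.04, adjusted p = 0.00106) and fell in MDA-MB-468 (-0.55 ± 0.13, adjusted p = 0.00245). PLAUR, the urokinase receptor, fell in MDA-MB-468 (-0.23 ± 0.06, adjusted p = 0.0051), and ENO1, a glycolytic enzyme that also binds plasminogen, rose there (0.28 ± 0.03, adjusted p = 2.3e-06).

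Genes that epithelia express together with S100A7, S100A8 and S100A9 under stress were measured as a further list. Of 35 such genes 27 were in the table. In MDA-MB-468, 18 were tested, 11 rose (24.9% of all genes) and 5 fell (22.7%), with a median of 0.18, and in MDA-MB-231, 10 were tested, none rose by limma, edgeR or DESeq2 (1 was higher at an unadjusted p under 0.05) and 2 fell. The stress keratin KRT6B rose in MDA-MB-468 from 433 ± 10.3 to 1030 ± 59.8 normalized read counts (1.25 ± 0.05, limma adjusted p = 1.62e-11), and the interleukin antagonist IL1RN rose from 43.6 ± 10.5 to 93.8 ± 8.31 (1.11 ± 0.16, adjusted p = 2.54e-05). The acute-phase genes SAA1 (-0.76 ± 0.08, adjusted p = 6.17e-07) and SAA2 (-0.72 ± 0.11, adjusted p = 5.83e-05) fell, so not all alarmin genes of the list went the way of the S100 alarmins. In MDA-MB-231 the chemokine CXCL8 fell (-0.41 ± 0.09, adjusted p = 0.00428). CXCL8 was also lower in high-glucose MDA-MB-468, at 20.8 ± 4.24 against 61.4 ± 9.03 normalized read counts in low glucose, without overlap. Its level there was under the 5 CPM limit for naming (3.91 CPM in low glucose).

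Of 55 listed genes in and beside the epidermal differentiation complex other than S100 genes, 26 were in the table. In MDA-MB-468, 20 were tested, 9 rose (24.9% of all genes) and 3 fell (22.7%), and in MDA-MB-231, 18 were tested, 2 rose (5.71%) and 1 fell (9.37%). SNAPIN rose in MDA-MB-468 by 1.08 ± 0.07 (limma adjusted p = 2e-09). Of 46 other genes with EF-hand domains 40 were in the table. In MDA-MB-468, 37 were tested, 16 rose and 7 fell, with a median of 0.10, and in MDA-MB-231, 36 were tested, 5 rose and 5 fell, against the same shares of all genes. Without low-glucose replicate 1, 6 rather than 10 were called in MDA-MB-231. CALML5, a calmodulin-like protein of differentiating skin, rose in MDA-MB-468 by 0.64 ± 0.05 (adjusted p = 1.76e-08), and GCA, an EF-hand protein of granulocytes, fell by 0.69 on the log2 scale (SE 0.05, adjusted p = 4.41e-09).

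Among 12430 genes with at least 5 CPM in a group, those whose values tracked an S100 gene most closely over the 16 libraries, after each line's mean was taken out, were ranked by Pearson's r. These r values describe 16 libraries in which the glucose groups of a line are part of the pattern, and they carry no test. S100A6 was most like PPIB (r = 0.981), S100A16 most like EIF6 (0.982), and S100A11 most like MOB3A (0.976). S100A9 was most like CAPN13 (0.989), and S100A8 had the defensin gene DEFB1 (0.956) among its 3 closest genes, but both S100 genes are constant at 0 in MDA-MB-231. For them only the 8 MDA-MB-468 libraries can vary together with another gene, while variation of that gene in MDA-MB-231 lowers r. Their ranking thus favors genes that are absent or flat in MDA-MB-231. S100A10 was most like CACYBP (0.902), which had 1911 ± 62.6 and 1788 ± 49.9 normalized read counts in low- and high-glucose MDA-MB-231 and 2113 ± 80.2 and 2101 ± 63.3 in MDA-MB-468. Among the S100 genes with reads in both lines, S100A16 and S100A11 had r = 0.944.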

How the data were processed

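Libraries were grouped by the labels. The table deposited by the authors holds a normalized signal, namely counts per gene over a library size factor. In every library 100% of values were whole multiples of the value of 1 read, within a tolerance of 0.01 reads, so reads were recovered. Per the paper's methods, reads were trimmed, aligned to hg19 with TopHat and tested with DESeq2, and edgeR gave normalized counts. The labels' processing notes also name edgeR, but hg38 as the build. The counting program and its use of strand are not given in the sources used here.

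Genes that reached 0.5 CPM in 2 samples of a fit were tested on log2(value + 1) with limma 3.58.1 (R 4.3.3; lmFit, eBayes with trend, two-sided, Benjamini-Hochberg over all genes tested, threshold 0.05), within each line, and with 4 group means over all 16 samples for contrasts between lines. S100A8 to S100A9 and S100A10 to ANXA2 ratios were compared by exact permutation. Symbols were found for 16633 of 18332 Ensembl IDs and lengths for 17418. The alternatives were pseudocounts 0.25 and 10, other filters, TMM and quantile scaling, edgeR 4.0.16 and DESeq2 1.42.0 on recovered reads, a replicate block, a length correction, a joint fit and leaving out each replicate. For MDA-MB-231, edgeR on recovered reads called 2244 genes (limma 2245), and for MDA-MB-468 it called 7484 (limma 7495). DESeq2 called fewer, 2085 and 6632, as did the joint fit, with 2020 and 6982. The fits were tested on simulated data.

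The 10 genes and all lists were chosen with earlier results of these data known. Named were the 10 genes, other S100 genes passing the filter in a line, and from each other list up to 2 largest called rises and falls per line with a mean of at least 5 CPM. For each S100 gene the 3 genes with the highest r were candidates for naming. A gene that this rule names is not reported here.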

Additional observations from a re-analysis of the deposited data

Results flagged for a closer look

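With 4 libraries in a group, a library was singled out when its gap to the nearest other library, as a share of the group's range, passed the 95% limit of Dixon's test. Of 56 groups tested over the S100 genes, 2 met this, where chance alone gives about 1 in 20. In high-glucose MDA-MB-231 replicate 4 had 6683 S100A11 normalized read counts, above the 6354 to 6403 of the other 3. In low-glucose MDA-MB-231 replicate 4 had 8905 S100A16 normalized read counts, below the 9738 to 9817 of the other 3. Without that S100A16 library the log2 difference of S100A16 in MDA-MB-231 was 0.01 (limma adjusted p = 0.809), and without that S100A11 library the difference of S100A11 was -0.01 (adjusted p = 0.875).

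The response to glucose differed between the lines, in limma's interaction test over all 16 libraries, for S100A6 (0.16 on the log2 scale, larger in MDA-MB-468), S100A11 (0.30) and S100A16 (0.40), and for S100A3 (-1.15), which fell in MDA-MB-468 and was not called in MDA-MB-231.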

How the results depend on the processing

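In MDA-MB-231, 3 of the 10 S100 genes were called, and 1 with no filter on low values, 1 with a length correction, 1 with a length correction and the replicate block, and between 1 and 2 when a replicate was left out. In MDA-MB-468 the count was 7, and 6 or 7 in all 20 alternatives. For the interaction it was 3, but 7 with a pseudocount of 10 and 5 with a filter of 5 CPM in 4 or more samples. The added calls came from among S100A7, S100A8, S100A9 and S100A14. These have no or nearly no reads in MDA-MB-231, so the larger counts cannot be read as more differences in response. Without low-glucose replicate 3 of MDA-MB-468, the S100A10 to ANXA2 ratio there differed by -0.07 (exact permutation, adjusted p = 0.0429). The number of alarmin genes called in MDA-MB-231 was 2, but 1 with DESeq2, 1 with the 5 CPM filter and 1 without low-glucose replicate 2. The number of other S100 genes called there was 0, but 1 with quantile normalization and 1 in the joint fit. These causes were not tested.

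Differences that changed sign were not called, except S100A11 between lines in high glucose, at -0.41 with the length correction, with and without the block. The length correction also gave -0.05 for S100A11 in MDA-MB-231, -0.03 for S100A2 and -0.04 for S100A4 in MDA-MB-468, with and without the block. In MDA-MB-468 quantile normalization gave S100A2 -0.01 and S100A4 -0.01, and DESeq2 gave -0.0020 and -0.0025. The S100A14 interaction was -0.23 with a pseudocount of 0.25 and -0.02 with quantile normalization. Leaving out a replicate gave ranges that crossed 0: in MDA-MB-231 S100A11 -0.01 to 0.02, S100A1 -0.11 to 0.26, in MDA-MB-468 S100A2 -0.03 to 0.05, S100A4 -0.03 to 0.04, S100A10 -0.05 to 0.01, S100A7A -0.03 to 0.33, S100P -0.04 to 0.03, and for the interaction S100A2 -0.08 to 0.01, S100A14 -0.20 to 0.56, S100A7A -0.03 to 0.33.

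Replicate numbers recur in each group, but same-numbered libraries did not deviate together (r from -0.04 to -0.00512 for MDA-MB-231, 0.0167 to 0.0319 for MDA-MB-468), so the numbers were not taken as pairs. Under the block, 2 of the 10 genes passed in MDA-MB-231 (S100A4 lost, adjusted p = 0.0882), 7 in MDA-MB-468, 3 for the interaction, and 10 and 9 between lines in low and high glucose. As a hint from the data, 3 of 4 numbers in MDA-MB-468 and 0 of 4 in the other line correlated best with their own number. The block called 1624 of all genes in MDA-MB-231 against 2245, and 7383 in MDA-MB-468 against 7495. S100A7, S100A8 and S100A9 could not be tested in MDA-MB-231, and the S100A8 to S100A9 ratio has no value there.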
